A study of Xenopus laevis with 18 samples.

Results

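The comparison covered 6 of the 18 arrays of a Xenopus laevis series: the 3 titled control at early neurula and the 3 titled control at mid-gastrula, chosen by their titles alone. The tissue was the lateral marginal zone, the belt of the gastrula from which lateral mesoderm and the pronephric kidney field arise. It was cut from embryos at early gastrula and grown as explants. All embryos had received GFP RNA in the equatorial region of all 4 cells at the 4-cell stage; embryos of the other arm, titled RA-depleted, received cyp26 RNA as well. Cyp26 enzymes break down retinoic acid (RA).

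Mid-gastrula explants were cultured for 3 h at 20 °C and early neurula explants overnight at 14 °C, so developmental stage, hours in culture and temperature cannot be told apart. The titles call the 3 arrays of a group biological replicates, and nothing states how many explants or embryos each one pooled. The early gastrula arrays of the same arm (1 h at 20 °C) entered the fit for their spread, and the RA-depleted arrays were used for comparison, for an 18-array alternative fit and in choosing the brightest probe set of a gene.

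During gastrulation, mesendoderm genes that respond to maternal factors and Nodal signals are active in the marginal zone, together with genes of the dorsal organizer. As gastrulation ends, paraxial mesoderm begins to form somites and muscle, Hox genes give cells positions along the head-to-tail axis, and intermediate mesoderm starts the kidney programme. Xenopus laevis is an allotetraploid, so many genes exist as a pair of homeologs, written .L and .S.

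All levels are log2 values minus the median of their own array, so a level of 0 is the middle probe set of that array. A difference is the early neurula mean minus the mid-gastrula mean on that log2 scale, with its standard error (SE), and 1 log2 unit is 2-fold. A gene was called when its Benjamini-Hochberg adjusted p from limma over all 32475 probe sets was under 0.05, and 1 probe set stood for each of 11303 genes. No detection calls were used, so a level near -2.3 is close to the dim end of the array and a fold from there is only the ratio the array reported.

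The signal of cyp26a1.S, the gene of an RA-degrading enzyme, was higher in the arrays titled control than in those titled RA-depleted. In the bright probe set of cyp26a1.S, the mid-gastrula arrays labelled control read 8.45, 8.16 and 8.18, whereas the RA-depleted arrays averaged 2.91. At early neurula the arrays labelled control read 8.04, 7.56 and 7.72, and the RA-depleted arrays averaged 3.63. The high signal thus lay in the arm whose labels list GFP RNA alone. Whether this probe set reads the injected cyp26 RNA is not given in the sources used here. The arrays are therefore called labelled control throughout; the directions below rest on the stage labels and not on the arm labels.

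Arrays of 1 stage resembled each other, with correlations of 0.987 to 0.991 over all probe sets, against 0.909 to 0.926 between the stages. Neurula array 2 stood apart in muscle genes. Of the 33 muscle genes called at least 2-fold higher, array 2 read lowest of the 3 neurula arrays in 32, compared with 46.5% of all 1161 genes called at least 2-fold higher. Neurula array 3 stood apart in the Hox genes, reading lowest in 19 of the 20 called at least 2-fold higher, compared with 35.1% of the 1161 genes. In those 20 genes the third RA-depleted neurula array was also the lowest of its group, compared with 43.2% of the 1161. The second RA-depleted neurula array read lowest in 19 of the 33 muscle genes, compared with 32.3% of the 1161. The counts below are given again without those arrays where they touch a result.

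Markers of the labelled tissue were present, along with those of the underlying endoderm. At mid-gastrula, tbx6.L averaged 4.48, myf5.L 4.05, lhx1.L 3.63, osr1.L 3.03 and foxf1.L 2.16, all genes of trunk, intermediate or lateral mesoderm. The lateral mesoderm markers hand1.L at -0.88 and pax8.L at -1.48, lay below the array median. Endoderm markers were bright, with the transcription factor sox17a at 5.62 (.S) and 5.89 (.L) and the secreted protein a2m.S at 7.65. None of the 8 epidermal marker genes averaged above the array median at mid-gastrula, their means running from -2.53 to -0.44. Markers of further tissues reached the levels of some mesoderm markers. Their mid-gastrula means ran from -0.64 to 3.95 (neural), 0.55 to 2.79 (organizer), -1.66 to 2.70 (multiciliated) and -1.84 to 2.96 (neural crest). In bulk explants, fewer cells of a type and less RNA per cell cannot be told apart.

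The step from mid-gastrula to early neurula touched most of the measured genes. Of the 11303 genes, 3425 (30.3%) were called higher and 3467 (30.7%) lower at early neurula, and the median difference was 0.016. At least a 2-fold difference was called upward for 1161 genes (10.3%) and downward for 1543 (13.7%). Over probe sets, 18436 of 32475 were called, 10279 (31.7%) higher and 8157 (25.1%) lower. Upward calls made up 55.8% of them; after a repeated quantile normalization this share was 48.7% and the median gene moved to -0.074. Because about 6 genes in 10 were called (61%), the share of a gene list that was called says little by itself, and each list is set against 30.3% higher and 30.7% lower.

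**Figure D1:**
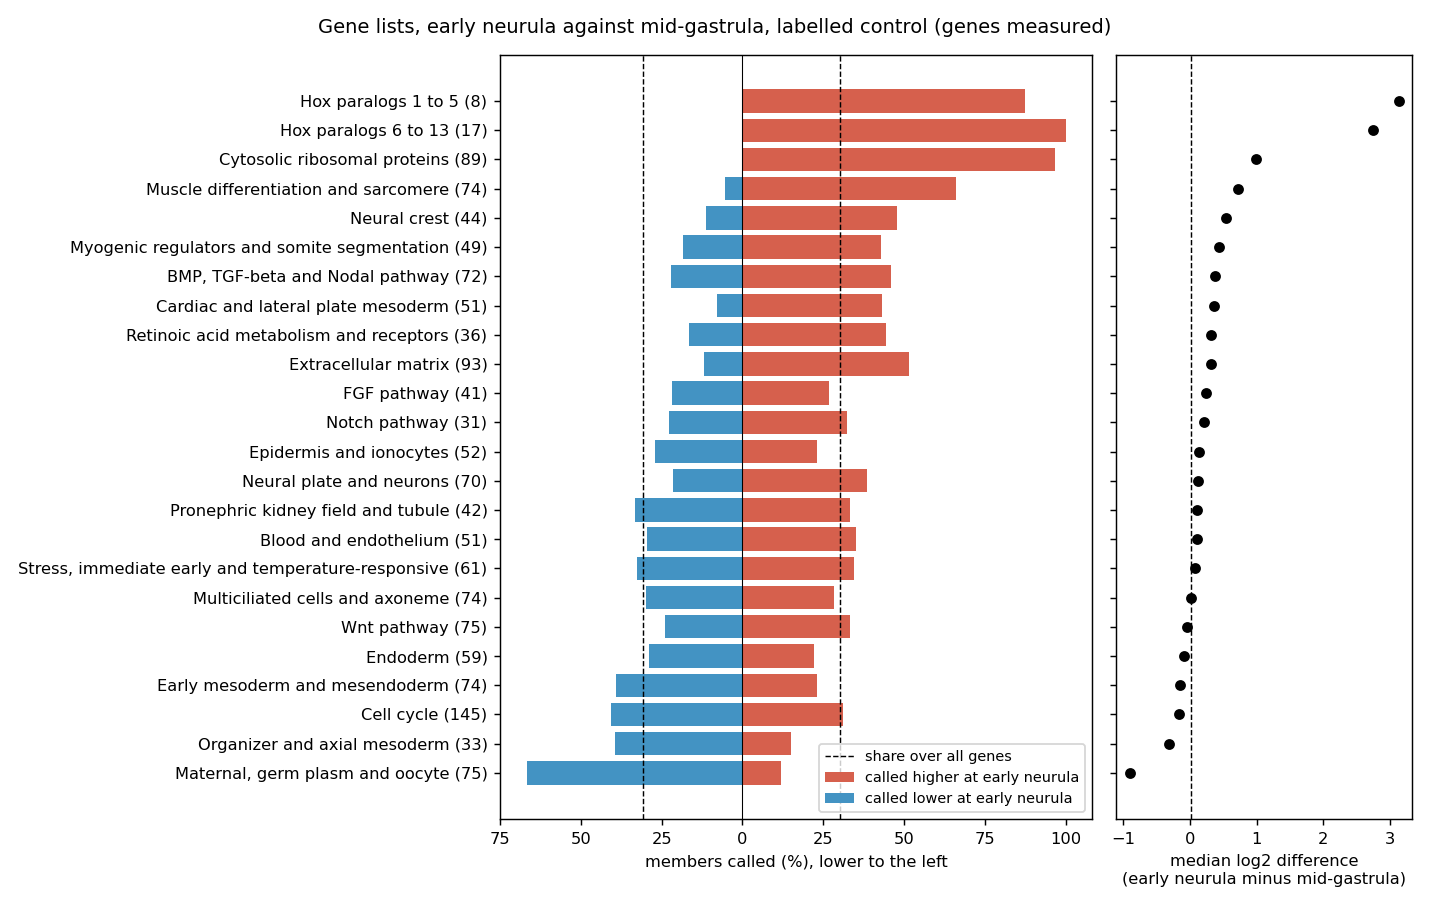
Left, the share of each gene list called higher (red) or lower (blue, to the left) at early neurula, with the number of genes measured in brackets; right, the median log2 difference of the list. Dashed lines mark all 11303 genes: both Hox lists, ribosomal proteins and muscle genes sit at the top, and the maternal and oocyte list at the bottom.

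Muscle structural genes gave the largest rises. The muscle list of 74 measured genes had 49 called higher (66.2%), 33 of them by at least 2-fold, and 4 called lower, with a median difference of 0.73. Without dim genes, 30 remained, with 24 called higher, 2 lower and a median of 3.39. myh4.L, a fast skeletal myosin heavy chain, read -2.14, -2.29 and -2.28 in mid-gastrula arrays 1 to 3 and 6.79, 5.36 and 7.03 in neurula arrays 1 to 3. That is a difference of 8.63 (SE 0.36, adjusted p = 3.95e-07). The gene went from the dim end of the array to among its bright probe sets. The groups did not overlap, which the choice of the largest rises required.

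The fast myosin light chain mylpf.L read -2.19, -2.40 and -2.05 at mid-gastrula, then 6.83, 5.45 and 6.87 at early neurula, a rise of 8.60. A second light chain, myl1.S, rose by 7.30, and fast troponin C, tnnc2.S, by 6.93. Desmin (des.1.L), the muscle intermediate filament, rose by 6.98. In each of these, as in myh4.L, neurula array 2 held the lowest neurula value while still lying far above every mid-gastrula array.

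Genes needed to build or run the sarcomere moved the same way. smyd1.L, a methyltransferase of myosin assembly, rose by 6.23 (SE 0.28), and srl.L, which encodes the sarcoplasmic reticulum protein sarcalumenin, by 6.00 (SE 0.36). The myosin chaperone unc45b.S rose by 4.31 and the thin-filament capping gene tmod4.L by 3.82. Others among the 12 largest rises were both homeologs of MGC75582 (8.61 for .S and 8.52 for .L), hrg.L (6.35), LOC446267 (6.08) and hoxa7.L (5.99). Of the probe sets with no gene symbol, Xl2.2507.1.A1_at (6.70) and Xl2.14812.1.S1_at (6.61) rose most.

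Among muscle genes, actc1.L had risen before mid-gastrula. From early to mid-gastrula (shared arrays) actc1.L rose by 5.61, and myl1.S and smyd1.L differed by 0.78 each. The deposited medians of the arrays labelled control were 5.85 to 5.90 at early gastrula and 5.47 to 5.51 at mid-gastrula. Subtracting them adds the gap between these medians to every difference from early to mid-gastrula. The 0.78 of myl1.S and smyd1.L includes this gap, so a rise in signal of that size is not shown. actc1.L, the embryonic sarcomeric actin, averaged -2.04 at early gastrula and read 4.22, 3.30 and 3.19 at mid-gastrula. It reached 8.15, 7.78 and 8.13 at early neurula, a further 4.45 (SE 0.26, adjusted p = 1.92e-06). Its mid-gastrula level was thus already well above the median, whereas myh4.L and mylpf.L were still dim.

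The 4 muscle-list genes called lower were ckb.L (-1.48), fhl1.S (-1.33), hspb1.S (-1.33) and atp2a1.S (-0.48). Creatine kinase B and the small heat-shock protein hspb1 are also used outside muscle. For ckb.L, a dimmer probe set was called higher (0.50) and another did not pass (0.24), while the rest fell by 1.45 to 1.85. For atp2a1.S, the sarcoplasmic reticulum calcium pump, the probe sets disagreed: the brighter one, which stood for the gene, fell by 0.48 while the other rose by 6.70 (SE 0.45). The remaining 21 genes of the list did not pass the test.

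Without neurula array 2 the muscle list had 50 genes called higher and 4 lower, and without array 3 it had 46 and 4. The median level of the whole list in the 3 neurula arrays labelled control was 0.64, -0.19 and 0.80, against -1.92, -1.93 and -1.92 at mid-gastrula. The RA-depleted neurula arrays gave medians of 1.04, 0.88 and 0.87.

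**Figure D2:**
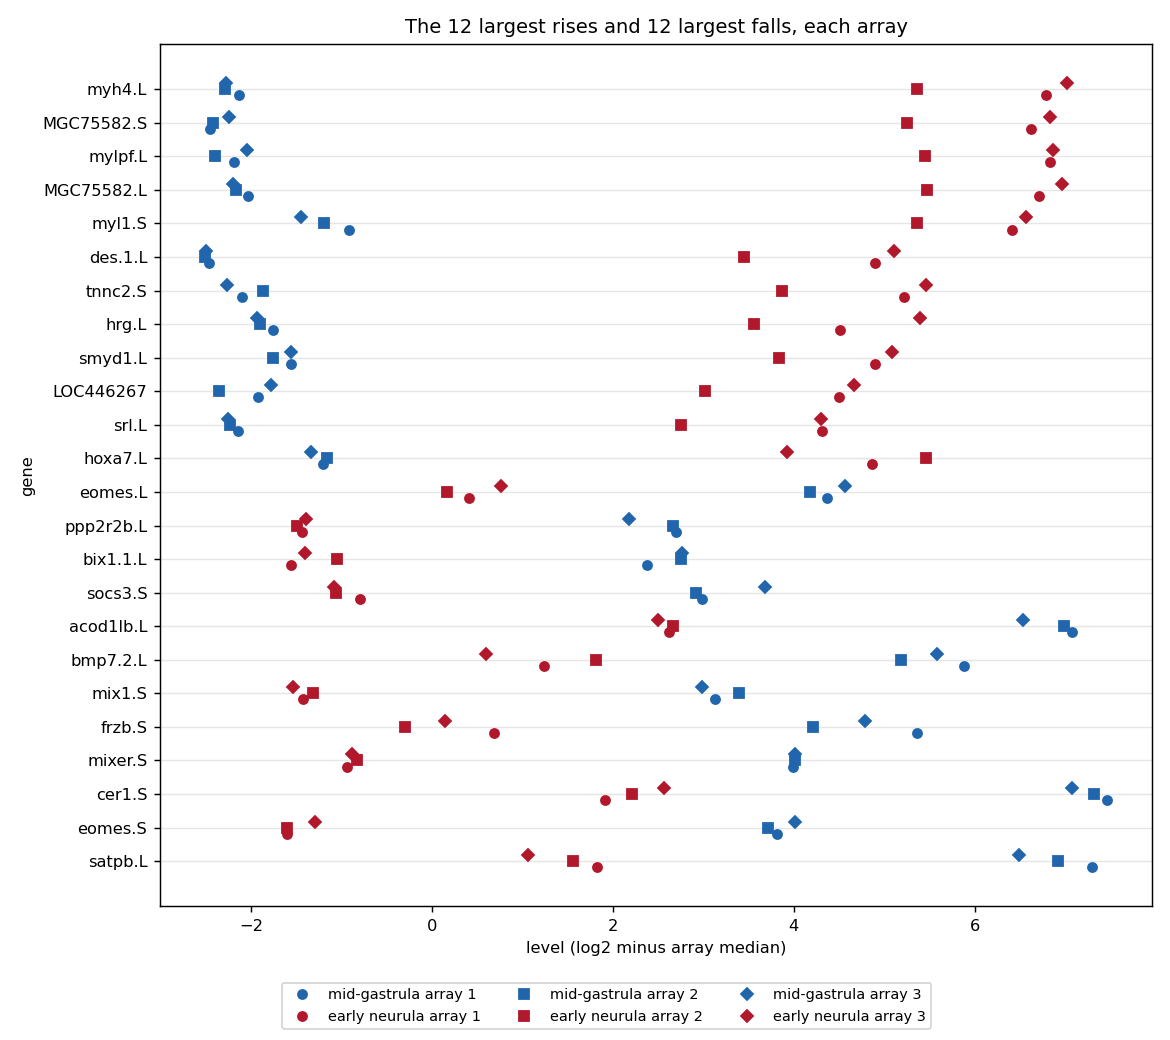
Level of the 12 genes with the largest rise and the 12 with the largest fall in each of the 6 arrays labelled control (log2 minus array median; blue, mid-gastrula; red, early neurula; marker shape, array number). Genes were chosen for arrays that do not overlap between the stages; for the muscle genes the red square of neurula array 2 lies to the left of the other red points.

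Upstream of muscle, the list of myogenic regulators and somite segmentation genes was split. Of 49 measured, 21 were called higher (42.9%) and 9 lower (18.4%), with a median of 0.44. myod1, the master regulator of skeletal muscle, rose in both homeologs, by 2.04 (.L, SE 0.49) and 1.42 (.S, SE 0.39). myod1.S read 3.30, 2.24 and 1.69 at mid-gastrula, then 3.78, 3.31 and 4.38 at early neurula, so the stages did not overlap but mid-gastrula array 1 came close to neurula array 2. The later-acting myog.S rose by 1.12 and myf6.L by 1.28, both from and to levels below the median.

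The third early regulator did not follow. myf5.L read 4.86, 4.00 and 3.30 at mid-gastrula, then 3.12, 3.16 and 3.51 at early neurula, a difference of -0.79 (SE 0.35) that did not pass the test (adjusted p = 0.0809). The groups overlapped, and the mid-gastrula arrays spread widely.

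Genes of somite formation went in both directions. tcf15.L (paraxis), required for somites to become epithelial, rose by 3.56 (SE 0.26), from values of 0.30, -0.66 and -0.61 to 3.53, 2.98 and 3.22. mespa.S, active in the newest forming somites, rose by 2.13, and uncx.L, a gene of the posterior part of each somite, by 1.60. hes7.1.L, a Notch-driven segmentation gene, fell by 2.97 (SE 0.15), foxc1.L by 1.59 and pax3.L by 1.15. The probe sets of pax3.L disagreed, a pair of others rising by 1.46 and 0.34. Among presomitic genes, tbx6.L (0.41, adjusted p = 0.0967), msgn1.S (-0.12, adjusted p = 0.785) and msgn1.L (-0.72, adjusted p = 0.0538) did not pass the test. msgn1.L did pass with the replicate number as a block (adjusted p = 0.039).

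Early mesendoderm regulators were among the largest falls. Of 74 genes in the list of early mesoderm and mesendoderm, 29 were called lower (39.2%), 25 of them by at least 2-fold, and 17 higher, with a median of -0.15. eomes.S, a T-box gene of mesendoderm, read 3.82, 3.72 and 4.01 at mid-gastrula, then -1.60, -1.61 and -1.29 at early neurula. The fall was 5.35 (SE 0.15, adjusted p = 1.32e-07), or 40.8-fold, and eomes.L fell by 3.93.

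Homeobox genes of the Mix family, which act downstream of Nodal and VegT, fell together. mixer.S read 4.00, 4.01 and 4.02 at mid-gastrula, then -0.94, -0.83 and -0.88 at early neurula, a fall of 4.89 with an SE of 0.12. mix1.S fell by 4.59, mixer.L by 3.85, bix1.1.L by 3.97, bix1.3.S by 3.44 and mix1.L by 3.07. These genes had already been falling: mixer.S was 2.38 lower at mid-gastrula than at early gastrula and mix1.S 2.62 lower, in a comparison that shares the mid-gastrula arrays.

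T-box genes of the marginal zone fell less far and remained bright. vegt.L, the T-box factor with maternal and zygotic transcripts, read 6.83, 6.63 and 6.68 at mid-gastrula, then 4.08, 4.06 and 3.53 at early neurula, a fall of 2.82. vegt.S fell by 2.12, tbxt.S (Brachyury) by 1.48 and tbxt.L by 1.11. The posterior and ventral Wnt ligand wnt8a.L fell by 1.48. All of these stayed more than 3 log2 units above the array median at early neurula.

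Genes of this list that rose included BMP pathway members. The T-box repressor tbx2.S rose by 1.72 (SE 0.43), the BMP target msx1.L by 1.46 and the BMP pseudoreceptor bambi.L by 1.39. bmp4 itself rose in both homeologs, by 1.02 (.L) and 0.88 (.S). tdgf1.2.S, a co-receptor for Nodal, rose by 2.0 while its relatives tdgf1.3.L and tdgf1.1.L fell by 2.39 and 2.28. Without neurula array 2 the list had 14 called higher and 27 lower with a median of -0.27, and without array 3, 20 and 26 with a median of -0.072.

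**Figure D3:**
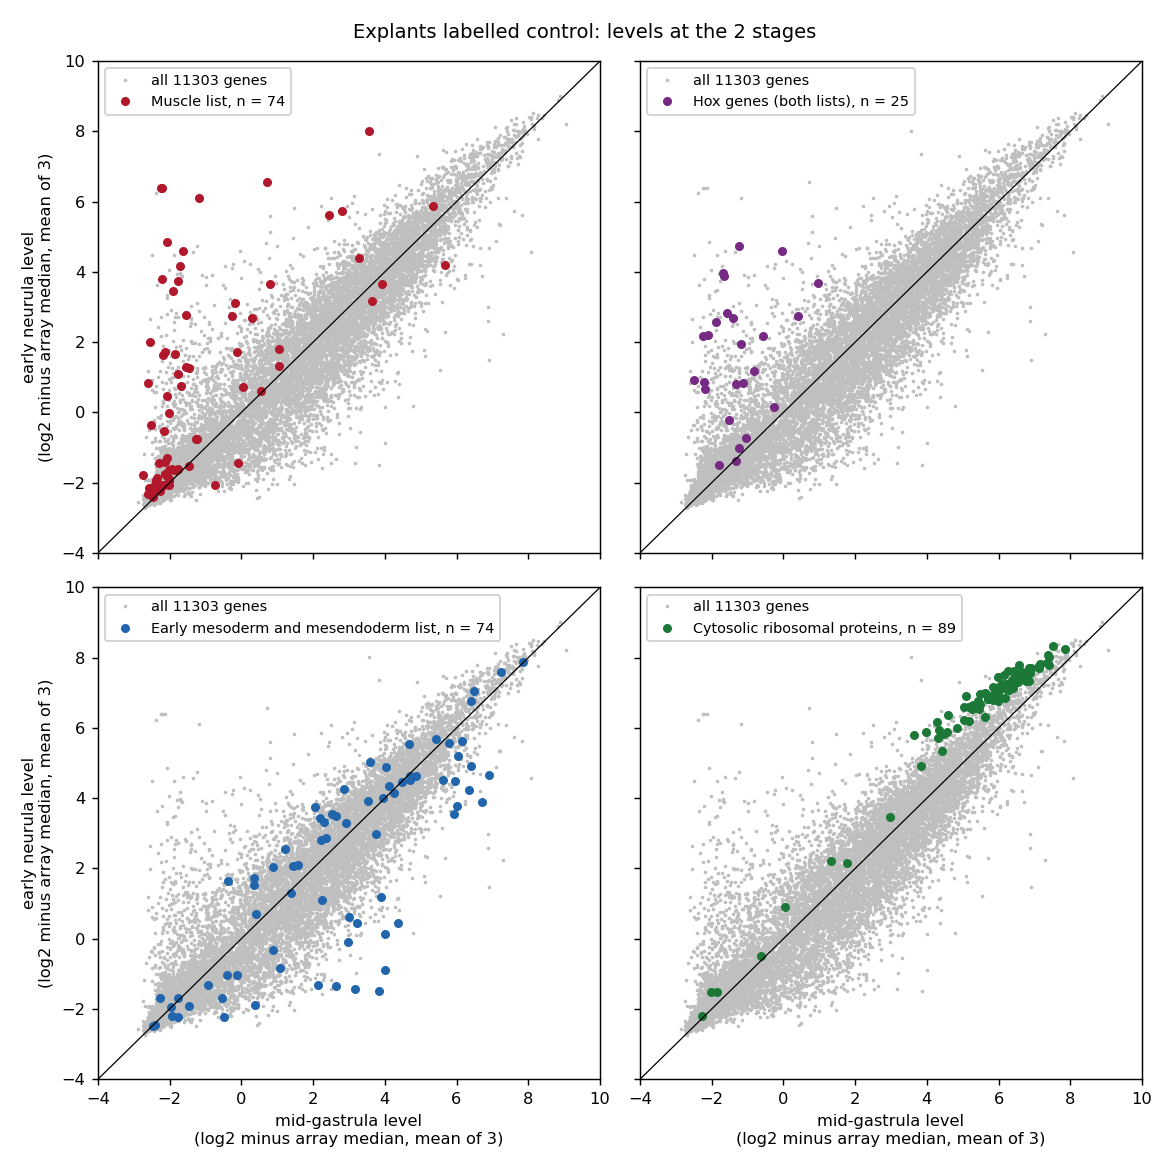
Mean level at mid-gastrula (horizontal) against mean level at early neurula (vertical), both log2 minus array median over 3 arrays labelled control, for all 11303 genes (grey) and 1 list per panel (coloured); the diagonal marks no difference. Muscle and Hox genes leave the dim end upward, a group of mesendoderm genes lies far below the diagonal, and nearly all ribosomal protein genes lie in a band above it.

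Organizer genes were called lower more often than higher. Of 33 measured, 13 were called lower (39.4%), 12 by at least 2-fold, 5 were called higher and 15 did not pass. The median was -0.32, and -0.81 without neurula array 3. cer1.S (cerberus), a secreted antagonist of Nodal, BMP and Wnt, read 7.47, 7.32 and 7.07 at mid-gastrula, then 1.92, 2.22 and 2.57 at early neurula, a fall of 5.05 (SE 0.16). It was among the brightest probe sets at mid-gastrula. The Wnt antagonists frzb.S and dkk1.S fell by 4.61 and 2.99, and the forkhead gene foxa4.L by 2.29.

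The homeobox gene gsc, goosecoid, was already low and uneven. gsc.S read 0.87, 0.73 and 2.01 at mid-gastrula, then -1.42, -1.18 and 0.20 at early neurula, a fall of 2.0 (SE 0.46), with array 3 the highest at both stages. gsc.L differed by -1.24, which did not pass (adjusted p = 0.0838) but did with the replicate number as a block (adjusted p = 0.038). The genes that rose belong to the notochord and its signals: col2a1.L, a fibrillar collagen, by 5.98 (SE 0.27), col9a1.L by 2.15, shh.L by 1.96 and nog.L, a BMP antagonist, by 1.92. The collagens are also made by other axial tissues.

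Because the explants were taken as the origin of the pronephros, the kidney genes were examined individually. Of 42 measured, 14 were called higher and 14 lower, each 33.3% and so close to the shares over all genes, and the members moved far apart. pax2.L, a paired-box regulator of kidney tubules, read -1.72, -1.78 and -1.77 at mid-gastrula, then 2.99, 2.74 and 2.46 at early neurula. The rise of 4.49 (SE 0.13, adjusted p = 1.48e-07) was seen in all 6 probe sets of the gene, by between 2.05 and 4.49.

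The kidney field genes osr1.L and lhx1.L fell. osr1.L, one of the first markers of intermediate mesoderm, read 3.09, 3.19 and 2.82 at mid-gastrula, then -0.56, -0.26 and -0.53 at early neurula, a fall of 3.48 (SE 0.16). lhx1.L, a LIM homeobox gene of both the organizer and the kidney field, fell from 3.91, 3.55 and 3.43 to 1.03, 0.85 and 2.27, a difference of -2.25 (SE 0.33). At early neurula lhx1.L was highest in array 3, which was also the highest array for gsc.

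pax8.L, which acts with lhx1 and pax2 in the kidney field, stayed dim. It read -1.37, -1.5 and -1.57 and then -0.98, -1.39 and -1.15, so 1 neurula array fell within the mid-gastrula range. The difference of 0.30 (SE 0.12) did not pass the test (adjusted p = 0.0617), and did with the replicate block (adjusted p = 0.017) or without neurula array 2. A second probe set of pax8.L gave 0.12, also not past the test.

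Among other kidney genes, tfcp2l1, a transcription factor of the distal tubule, rose in both homeologs, by 2.89 (.L) and 2.87 (.S), and was bright at early neurula. The nuclear receptor nr2f2.L rose by 2.40, gata3.S by 1.61 and wnt4.L, a tubule-inducing ligand, by 1.34. The Iroquois genes, which divide the nephron into segments, fell: irx1.S by 1.61, irx2.L by 1.55 and irx3.L by 0.92. irx1.S was uneven at early neurula (1.40, 0.64 and 3.06) and lost its call when neurula array 1 or 2, or mid-gastrula array 1 or 3, was left out. wnt11.S fell by 2.22 after having risen by 2.74 from early to mid-gastrula.

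Cardiac and lateral plate genes were called higher more often than lower, 22 (43.1%) against 4 (7.8%) of 51, with a median of 0.36. nkx2-5.S, the earliest heart regulator, read -1.15, -1.58 and -1.77 at mid-gastrula, then 0.57, 1.43 and 2.59 at early neurula, a rise of 3.02 (SE 0.42). tbx3 rose by 3.42 (.S) and 2.06 (.L), isl1.S by 1.89 and tbx1.L by 1.86. hand1.L, a lateral plate gene, differed by 0.20, which did not pass (adjusted p = 0.543).

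The GATA factors used by heart and endoderm did not share this direction. gata4.S fell by 3.30 (SE 0.14) and gata4.L by 1.97. gata5 was split between homeologs, with gata5.L falling by 0.54 and gata5.S rising by 1.20. The fall of gata5.L was lost in the fit to all 18 arrays and without any 1 of 4 arrays.

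Blood and vessel genes were close to the shares over all genes, with 18 called higher (35.3%) and 15 lower (29.4%) of 51. lmo2.S, a blood-forming cofactor, rose by 3.98 (SE 0.48), from 0.90, 0.93 and -1.11 to 4.49, 3.88 and 4.30. gata2.L rose by 1.39, and larval-type globins came up from the dim end, hba3.L by 1.83 and hba4.S by 1.74. The VEGF receptor gene flt1 fell by 2.79 (.L) and 2.88 (.S), and the ETS gene fli1.S by 2.98. fli1.S had risen by 3.68 from early to mid-gastrula (shared arrays), so its highest level of the 3 stages was at mid-gastrula.

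Hox genes rose almost without exception. All 17 measured genes of paralog groups 6 to 13 were called higher, 13 of them by at least 2-fold, with a median of 2.74. In groups 1 to 5, 7 of 8 were called higher, with a median of 3.13, and none of the 25 Hox genes was called lower. Against 30.3% of all genes called higher, these shares were 100% and 87.5%. Without dim genes, 11 of the 17 and 4 of the 8 remained, all called higher.

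hoxa7.L rose most, from -1.21, -1.16 and -1.34 to 4.86, 5.47 and 3.92, a difference of 5.99 (SE 0.31, adjusted p = 1.06e-06). hoxb9 read -1.60, -1.68 and -1.81 and then 4.04, 4.44 and 3.44, a rise of 5.67. hoxc8.S rose by 5.55. These trunk Hox genes went from dim to bright, and in each the lowest of the neurula arrays was array 3.

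Some trunk genes read higher at mid-gastrula than at early gastrula (shared arrays): hoxc6.S by 2.43, hoxa7.L by 1.12 and hoxc8.S by 0.65. These differences include the gap between array medians given with the muscle genes. It weighs most on the 0.65 of hoxc8.S, which therefore does not show that this gene had begun to rise. hoxc6.S read 0.62, 0.37 and -1.08 at mid-gastrula after -2.46 on average at early gastrula. It reached 4.77, 4.89 and 4.16, a rise of 4.63 (SE 0.40). Of the hindbrain-level genes, hoxa2.S rose by 4.41, hoxa3.S by 4.30 and hoxc5.L by 4.42. hoxb5.S averaged -1.31 and then -1.39, a difference of -0.08 (adjusted p = 0.408).

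At the posterior end of the clusters the differences were smaller. hoxc10.L rose by 4.10 and hoxd11.L by 2.14, whereas hoxa11.S (0.29), hoxc12.L (0.28), hoxa13.S (0.23) and hoxd13.S (0.42) passed the test by little, with adjusted p from 0.029 to 0.0415. After repeated quantile normalization 15 of the 17 were called higher. Without neurula array 2, 14 of the 17 genes of groups 6 to 13 kept a call, and without array 3, 16 did; all 7 calls of groups 1 to 5 were made in both. The caudal genes cdx4.L, cdx2.L and cdx1.S, which activate posterior Hox genes, rose by 1.53, 1.5 and 1.22 from levels that were already high.

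**Figure D4:**
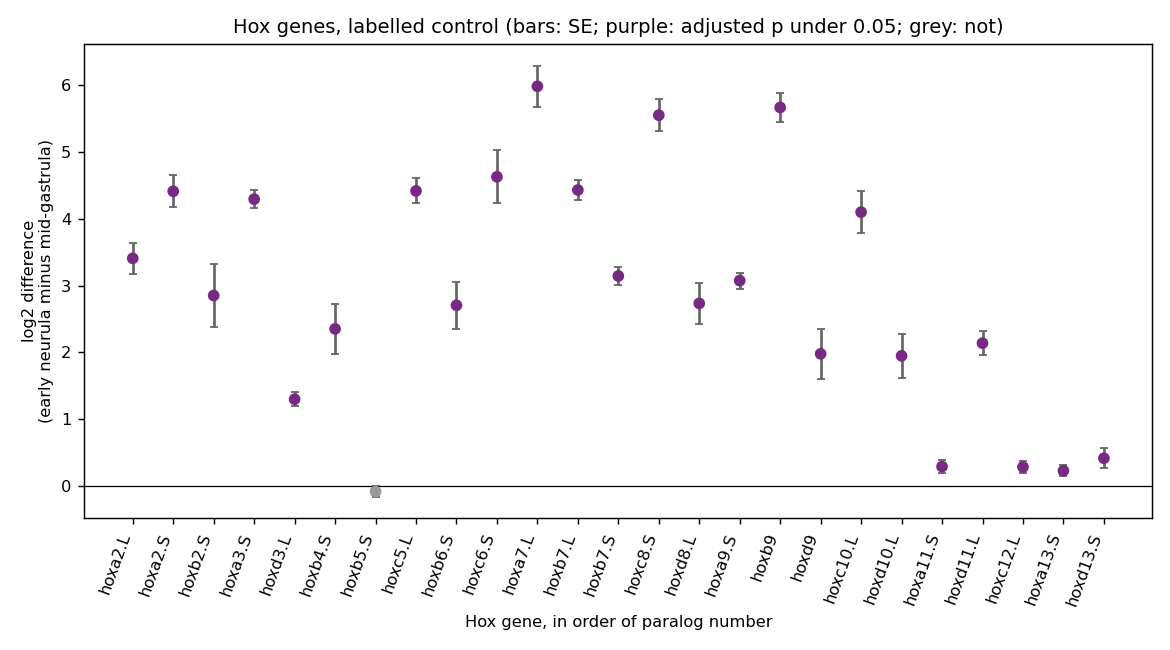
Log2 difference between early neurula and mid-gastrula for the 25 measured Hox genes, ordered by paralog number; bars are the standard error of the limma fit, purple points passed adjusted p under 0.05 and the grey point did not. Rises of 4 to 6 occur from group 2 to group 10, and the 4 genes of groups 11 to 13 other than hoxd11.L lie below 0.5.

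Genes that make, sense and remove RA were measured as well, since the series concerns RA. Of 36, 16 were called higher (44.4%) and 6 lower (16.7%), with a median of 0.32. lrat.L, which stores retinol as esters, rose from -1.25, -1.60 and -1.48 to 2.39, 2.36 and 2.62, a difference of 3.90 (SE 0.12). The receptors rara.L, rxra.L and rarg.S rose by 1.84, 1.74 and 0.87, and rxrg.L fell by 2.26. rdh10.L, which makes retinaldehyde, rose by 0.82 from an already bright level.

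For the enzyme that makes RA itself, aldh1a2.L, the probe sets gave no single direction. The brightest read 6.62, 6.44 and 6.28 at mid-gastrula, then 6.40, 5.60 and 5.98 at early neurula, a difference of -0.45 that did not pass (adjusted p = 0.059) but did with the replicate block (adjusted p = 0.027). Of the other 6, 3 fell, by 1.11, 1.18 and 2.51, 2 rose, by 0.42 and 2.15, and 1 did not pass. The 3 that fell had mean levels over the 18 arrays of 1.48, 5.28 and 5.25. The 2 that rose were dimmer, at -2.18 and -0.23, as was the 1 that did not pass, at -2.13. The RA-degrading gene cyp26a1.S fell by 0.49 (adjusted p = 0.0124) in the probe set described above, a call lost in the fit to all 18 arrays. Its second, dimmer probe set rose by 0.74. cyp26a1.L rose by 0.81, a call lost without mid-gastrula array 2. The retinaldehyde reductase gene dhrs3.L fell by 0.73, a call lost without any 1 of 3 arrays.

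Extracellular matrix genes were called higher in 48 of 93 (51.6%) and lower in 11, with 32 higher by at least 2-fold. thbs4.S, a thrombospondin of muscle and tendon matrix, read -2.04, -1.98 and -2.19 at mid-gastrula, then 3.79, 2.39 and 3.82 at early neurula, a rise of 5.40. The matrix genes matn4.L and hapln3.L rose by 4.94 and 4.45, and fibrillin fbn3.L by 4.79. sparc, a collagen-binding protein of basement membranes, rose in both homeologs, by 4.64 (.L) and 3.47 (.S). In thbs4.S and matn4.L neurula array 2 was the lowest, as in 46.5% of the 1161 genes called at least 2-fold higher. The hyaluronan synthase has2.S fell by 1.45 and the protease adamts1.L by 2.14.

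Markers of ectoderm and endoderm were followed because the explants could hold such cells. Neural genes were called higher in 27 (38.6%) and lower in 15 (21.4%) of 70. Without dim genes, 21 remained, with 6 called higher, 10 lower and a median of -0.38. snap25.L, a synaptic vesicle fusion protein, rose from -1.67, -1.81 and -1.59 to 3.98, 4.33 and 3.43, a difference of 5.60 (SE 0.19). The neural plate genes zic2.S, zic2.L, zic1.S, sox3.S and sox3.L fell by 2.40, 2.24, 2.0, 1.24 and 1.07. sox2.L rose by 0.99 with an adjusted p of 0.0494, a call lost under 6 of the alternatives run. The neural marker tubb2b.S rose by 1.20, a call lost without neurula array 1 or mid-gastrula array 3, and elavl3.L (-0.24) did not pass. The summed linear level of sox2, sox3, tubb2b and elavl3 ran from 28.5 to 33.0 times the array median at mid-gastrula. At early neurula it was 24.4 to 27.7.

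Neural crest genes were called higher in 21 (47.7%) and lower in 5 (11.4%) of 44. The proto-oncogene mycn rose by 2.27 (.S) and 2.24 (.L), whereas the crest regulators snai2.S and sox9.S fell by 1.72 and 2.58. Both of these also serve mesoderm, and snai2.S had risen by 2.32 from early to mid-gastrula. Their homeologs snai2.L (0.45) and sox9.L (0.83) did not pass the test. The crest marker foxd3.L was called higher, by 1.35, and foxd3.S (0.71) did not pass. The summed linear level of the 3 fixed crest markers (6 homeologs) ran from 11.6 to 23.0 times the array median at mid-gastrula and from 11.3 to 14.9 at early neurula.

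Epidermal genes were called less often than all genes in both directions, 12 higher (23.1%) and 14 lower (26.9%) of 52. krt70.L read -2.13, -2.16 and -1.85 at mid-gastrula but -1.14, 2.61 and 2.45 at early neurula, and itln1.L read -1.44, 1.63 and 0.70 at early neurula. In both genes the signal was uneven between neurula arrays and lowest in array 1. Of the fixed epidermal markers, dlx3 was called higher, by 2.07 (.L) and 1.48 (.S), while both homeologs of krt12.4, tp63 and grhl3 did not pass the test. The summed level of the 4 markers ran from 2.31 to 2.85 at mid-gastrula and from 3.15 to 8.45 at early neurula. The part of such cells in the other differences was not tested.

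Multiciliated cell genes were close to the background, with 21 higher and 22 lower of 74. The centriole-amplifying gene ccno.L fell by 3.84 and the ciliary master regulator foxj1 by 0.87 (.L) and 1.63 (.S), the latter call being lost without any 1 of 3 arrays. ak1.L, which rose by 4.87, is an adenylate kinase that muscle also contains. Its neurula values were 3.25, 2.02 and 3.17. Array 2 was the lowest, as in 46.5% of the 1161 genes called at least 2-fold higher, and the tissue behind this rise was not tested.

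In the endoderm list, 13 genes were called higher (22.0%) and 17 lower (28.8%) of 59. Most of the large falls were the mesendoderm and organizer genes already named. sox17a.S and sox17a.L did not pass the test, with differences of -0.02 (SE 0.17) and -0.17 (SE 0.17). Transferrin, tf.L, a serum protein of liver, rose by 4.34 (SE 0.51). ttr.L rose by 2.89, with 0.15, -0.24 and 3.23 in the neurula arrays, so that array 3 carried most of the difference. The summed level of the 3 measured endoderm markers ran from 318 to 335 times the array median at mid-gastrula. At early neurula it ran from 433 to 469. Among these markers only a2m.S was called higher, by 0.73, while sox17a.S, sox17a.L and foxa2.L (-0.14) did not pass the test.

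The signalling lists are set against 30.3% of all genes called higher and 30.7% lower. In the BMP, TGF-beta and Nodal list 33 were called higher (45.8%) and 16 lower (22.2%) of 72. bmp7.2.L fell by 4.34 (SE 0.28), from 5.88, 5.18 and 5.58 to 1.24, 1.81 and 0.60, while its relative bmp7.1.L rose by 0.77. The Nodal ligands nodal1.L and nodal2.L fell by 1.22 and 1.92 and the related ligand gdf3.S by 2.23. The BMP effector smad9.S and the BMP target id4.S rose by 2.63 and 2.23.

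In the Wnt list 25 were called higher (33.3%) and 18 lower (24.0%) of 75. The transcription factor tcf7l2.L rose by 3.23 (SE 0.08), the ligand wnt5a.S by 1.76 and the receptor fzd3.L by 2.0, while the agonist rspo2.L fell by 2.39. In the FGF list 11 were called higher (26.8%) and 9 lower (22.0%) of 41, both below the shares over all genes. The decoy-type receptor fgfrl1.L was up by 2.47 and fgfr2.L down by 1.57. In the Notch list 10 were called higher (32.3%) and 7 lower (22.6%) of 31. The Notch target hey1.S was up by 2.47 and the ligand dll1.L down by 0.88. socs3.S, an inhibitor of cytokine signalling among the 12 largest falls, fell by 4.18.

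The remaining large falls were satpb.L (-5.42, the largest of all genes with a symbol), acod1lb.L (-4.27) and ppp2r2b.L (-3.95), a regulatory subunit of protein phosphatase 2A. satpb.L read 7.29, 6.92 and 6.50 at mid-gastrula, then 1.83, 1.56 and 1.06 at early neurula. For acod1lb.L the other 2 probe sets did not pass the test (0.09 and -0.17). Of the probe sets with no symbol, Xl2.15273.1.A1_at (-4.45) and Xl2.55770.1.S1_at (-4.28) fell most.

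Maternal, germ plasm and oocyte genes were the list most often called lower, 50 of 75 (66.7%), 33 of them by at least 2-fold, with a median of -0.90. pou5f3.2.L, an Oct4-related pluripotency factor, read 6.79, 6.86 and 7.01 at mid-gastrula, then 2.85, 3.21 and 2.90 at early neurula, a fall of 3.90 (SE 0.11, adjusted p = 1.48e-07). It was bright in all mid-gastrula arrays. The oocyte linker histone h1-8.S fell by 3.19, the translational regulator dazl.L by 2.66 and velo1.L by 3.27. Only 9 genes of this list were called higher, led by ddx25.L (1.42), trim36.L (1.15) and nasp.L (1.05).

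Within the cell cycle list, 45 were called higher (31.0%) and 59 lower (40.7%) of 145. The embryonic cyclin ccna1.L fell by 3.31 and ccna1.S by 2.99, ccnb1.S by 3.36 and the egg-type kinase wee2.L by 3.48. Of the replication helicase genes, mcm3.L fell by 2.05 and mcm6.L by 1.15, whereas mcm5.S rose by 3.06, mcm6.2.S by 1.76 and mcm4.S by 1.5. The anaphase activator fzr1.L, which takes over as cycles gain a G1 phase, rose by 1.91, and ccng2.S, a cyclin of arrested cells, by 2.20.

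Cytosolic ribosomal protein genes shifted as a block. Of 89, 86 were called higher (96.6%) and none lower by limma; at an adjusted p of at least 0.05 stood rpl34.S, rps15.S and rpl3l.L. The median difference was 0.99, and 44 genes were higher by at least 2-fold, 16 after repeated quantile normalization. rpsa.L, a component of the small subunit, read 3.45, 4.05 and 3.39 and then 5.92, 5.83 and 5.64, a rise of 2.17 (SE 0.22). rpl22l1.L rose by 1.92, rpl4.S by 1.89 and rps12.L by 1.84.

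Bright probe sets in general read higher at early neurula, and ribosomal protein genes are bright, with a median deposited log2 of 11.975. The 99th percentile of the deposited values was 12.1 to 12.2 in the mid-gastrula arrays and 12.5 in the neurula arrays. Between deposited log2 of 11 and 12, the 27 ribosomal genes had a median difference of 1.20 and the 359 other genes 0.21. After repeated quantile normalization those medians were 0.84 and -0.029, and over the whole list 0.65 with 79 genes called higher and none lower. The part of brightness in the shift was not tested beyond these values.

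Since temperature changed with stage, genes that respond to stress or cold were listed. Of 61, 21 were called higher (34.4%) and 20 lower (32.8%), close to the shares over all genes, with a median of 0.075. The immediate early genes fos.S and junb.L, which respond to wounding among other stimuli, fell by 3.02 and 3.20. fos.S read 3.83, 3.87 and 3.52 at mid-gastrula, after 3 h in culture, and 0.78, 0.53 and 0.84 at early neurula, after 5.51 on average at early gastrula. ddit3.L, a factor of the unfolded protein response, fell by 2.12.

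The probe sets of the cold-inducible RNA-binding gene cirbp differed in size and sign, and those standing for the genes lay near the bright end of the arrays. cirbp.S read 8.19, 8.11 and 7.94 at 20 °C and 8.34, 8.34 and 8.36 at 14 °C, a rise of 0.27 (SE 0.09, adjusted p = 0.0311). cirbp.L rose by 0.22 (adjusted p = 0.0265), and both calls were lost under several alternatives, including quantile normalization. Among less bright probe sets, that of cirbp.L rose by 1.56, while those of cirbp.S ranged from -0.42 to 0.81. Chaperones shifted in both directions, with serpinh1.S up by 1.21, hsph1.L by 0.80 and hspa5.L by 0.67, and hsp70.L down by 1.75. The homeolog hspa5.S, of similar level, was called lower by 0.47. hspd1 was also split, with hspd1.L up by 0.58 from below the array median and the bright hspd1.S down by 1.08.

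Both homeologs were measured for 2009 pairs. In 802 pairs 1 member was called, in 351 neither, and in 856 both: 345 pairs higher together, 334 lower together and 177 (20.7%) in opposite directions. In 32 pairs each member moved by at least 2-fold in opposite directions. Across the 2009 pairs the correlation of the differences was 0.496; pairs share their arrays and can share probes, so it is a description. With dim genes left out, 124 of 662 jointly called pairs were opposite and the correlation was 0.559.

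The widest gap was in riboflavin kinase, rfk, whose .L copy fell by 2.37 (SE 0.10) from 3.15 to 0.78 while the .S copy rose by 3.41 (SE 0.41) from 1.86 to 5.27. nasp, a histone chaperone, fell by 3.40 in .S and rose by 1.05 in .L. Opposite differences were also called in qrich1l (2.95 for .L and -2.18 for .S), higd1a (2.23 and -2.11) and rffl (1.29 and -2.88). These pairs were picked by the size of their gap after the values were seen. Probe sets of 1 gene also disagreed in places: of 2702 genes with several, 238 had called probe sets of opposite sign. Dimmer probe sets of some genes named above did not pass the test. These included lhx1.L (0.18), hes7.1.L (0.20), gata4.L (-0.14), rara.L (0.18), tcf7l2.L (0.30), serpinh1.S (0.29) and sox2.L (0.82). For lhx1.L, hes7.1.L, rara.L, tcf7l2.L and sox2.L, other dimmer probe sets were called in the direction given above.

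**Figure D5:**
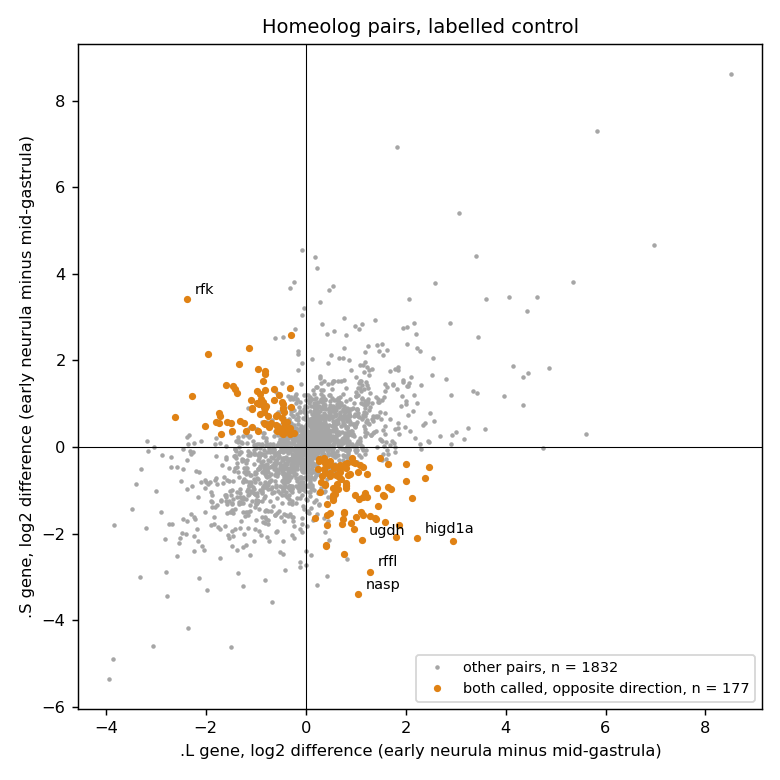
Log2 difference (early neurula minus mid-gastrula, labelled control) of the .L gene against that of the .S gene for 2009 homeolog pairs. Orange marks the 177 pairs in which both were called in opposite directions, lying in the upper left and lower right of the plot; most points lie near 0 or on the rising diagonal.

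The stage step was then compared with that of the RA-depleted arm. There, 18302 of 32475 probe sets were called (56.4%), against 56.8% in the arm labelled control. The difference between the 2 steps, tested as an interaction in all 18 arrays, was called for 20 probe sets (0.0616%), with the stage difference higher in the arm labelled control for 1 (0.00308%) and lower for 19 (0.0585%). Of all probe sets, 907 had an unadjusted p under 0.05. With differences taken within stage and replicate number, which serves as the block, 298 (0.918%) were called, 76 (0.234%) higher and 222 (0.684%) lower.

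None of the genes named by the selection rule was among the 20. Their values in the RA-depleted arm are given for the genes on which the account turns. Mean myh4.L went from -2.20 to 7.08 there, eomes.S from 3.60 to -1.89, pax2.L from -1.86 to 2.74, osr1.L from 2.67 to 0.23 and hoxa7.L from -0.43 to 4.74. Each moved in the same direction in both arms. Most named genes were chosen by their stage difference in the arm labelled control, which enters the test between arms. With the block, that test called 16 of the 213 named genes, against 0.918% of all probe sets. Because of the choice, the count says nothing about the named genes as a group. Of the 16, 7 had a higher (more positive) and 9 a lower stage difference in the arm labelled control. The largest were col9a1.L (-1.95), ak1.L (-1.72), lhx1.L (-1.65), dhrs3.L (-1.52), hoxc6.S (1.48) and vegt.S (1.27). Of these, dhrs3.L fell by 0.73 in the arm labelled control but went from 4.49 to 5.28 on average in the other.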

How the data were processed

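RNA from 18 explant samples was hybridised to 1-colour Affymetrix Xenopus laevis arrays, 3 for each of 6 groups defined by the titles. The deposited values are log2 intensities made by RMA (the affy package), as the submitters' processing notes list. Versions, and which arrays were normalized together, are not given in the sources used here. The deposited array medians were 5.85 to 5.91 at early gastrula and 5.47 to 5.51 at the later stages. In the arm labelled control, the 99th percentile was 12.1 to 12.2 at mid-gastrula and 12.5 at early neurula. Normalization by stage, if it was done, cannot be told apart from stage, and this was not tested. After 160 control probe sets were removed, each array's median was subtracted. limma 3.58.1 (R 4.3.3) was fitted to the 9 arrays labelled control, with no block, and p-values were Benjamini-Hochberg adjusted over 32475 probe sets. No depth exists for arrays, and 3 per group limit the precision.

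Each gene was represented by its brightest probe set on average over 18 arrays; 15495 probe sets had 1 symbol, 279 several and 16701 none, and gene names were updated through RefSeq (assembly Xenopus_laevis_v10.1). Text names the 12 largest calls per direction whose arrays did not overlap, up to 4 such calls per direction of each of 24 gene lists, all measured homeologs of a panel of 35 genes, and the 2 largest probe sets per direction without a symbol. Other list members were chosen after their values were seen, and the lists and comparisons were chosen with earlier results of these data known.

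Same-numbered arrays deviated together between the stages (r = 0.5553, 0.4787 and 0.4631; different numbers, -0.2889 to -0.2143), so replicate numbers pair the samples; the pairing comes from the data, since the labels give only the numbers. The test was checked on simulated data with 200 changed probe sets among 32475, recovering 34.33%, 73.63% and 95.96% of log2 changes of 0.5, 1 and 2. A far larger share (56.8%) was called in the real comparison, and the simulated noise was independent between arrays. These recovery rates therefore need not hold for the real comparison. p-values measure the spread between these samples. Alternatives covered centring, normalization, arrays in the fit, blocks, variance model, leaving out dim probe sets (those not above a deposited log2 of 6 on at least 3 arrays) and each array left out. No sequences were used.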

Additional observations from a re-analysis of the deposited data

Results flagged for a closer look

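The stage difference itself differed between the arms, by limma's interaction term with adjusted p under 0.05, for 11 probe sets with a gene symbol. The largest was in hapln3.S, a link protein of hyaluronan matrix, whose probe sets gave a stage difference smaller in the arm labelled control by log2 -2.56 and -1.24; its means went from -2.32 to -1.24 in the arm labelled control and from -2.32 to 1.33 in the RA-depleted arm for the first of these. sema3fl.S, a semaphorin guidance cue, gave -2.41, with -0.85 to 0.34 in the arm labelled control and -0.95 to 2.65 in the other. Each of these rose in both arms and rose less in the arm labelled control.

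The FGF receptor fgfr3.L gave -1.66, because it did not pass the test in the arm labelled control (0.25 to 0.02) and rose from 0.21 to 1.64 in the RA-depleted arm. The chemokine receptor cxcr4.L gave -1.03, falling from 3.77 to 2.90 in the arm labelled control with 3.88 and 4.03 in the other. The matrix proteoglycan vcan.L (-1.27) and the zinc finger gene mecom.L (-1.22) fell in the arm labelled control and rose in the RA-depleted arm. ndrg1.L (-1.62) and noct.L (-1.08) rose in both arms, and prkag3.L (-0.954) rose past the test only in the RA-depleted arm.

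A single gene went the other way. spam1.L, a sperm-type hyaluronidase gene, gave 2.33, with neurula values of 3.50, 2.50 and 1.94 in the arm labelled control after -2.54, -2.54 and -2.53 at mid-gastrula; the RA-depleted means were -2.56 and 0.30. Because the cyp26a1.S signal was higher in the arm labelled control, the direction between arms holds only for the arrays as labelled.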

How the results depend on the processing

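The 18436 calls of the stage comparison ran from 16309 to 17090 when 1 array was left out. With other normalizations, arrays, blocks or variance models the count ran from 17822 to 20549. It was 17094 without probe sets ending in _x_at or _s_at and 12052 without dim probe sets (5850 higher), both with fewer tested, and 6816 with a difference of at least 1 (3469 higher, 3347 lower). The fixed replicate block gave 20549 calls. The block added calls for snai2.L, pax8.L, aldh1a2.L, msgn1.L and gsc.L, and fitted to 6 arrays lost those of cirbp.S and cirbp.L; it changed no other call among the named genes. The 20 differences between arms were 298 with pair differences as the block, 54 with a fixed block, 4 with 12 arrays, 8 without dim probe sets, and 8 to 27 with 1 array left out; the cause was not tested.

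Of 198 named genes with a call, 12 lost it under some alternative and 0 reversed. Medians turned without dim genes in the pronephric (-0.2752), blood (-0.1705), neural (-0.3783) and epidermal (-0.2285) lists. The multiciliated median was -0.0304 with every probe set, -0.0021 after quantile normalization and -0.086 without dim genes, and the stress median -0.0188, -0.1512 and -0.1018. The Wnt median was -0.0129 without neurula array 2 and 0.0411 without array 3, settings added after seeing the data, as were all list counts without those arrays. Genes without a call that turned were tp63.L (-0.018176) and tp63.S (-0.054503) after quantile normalization and sox17a.S with array weights (0.0074562). With 1 array left out, tp63.S ran from -0.0089533 to 0.098817, sox17a.S from -0.063367 to 0.072342, msgn1.S from -0.44614 to 0.25195 and meox2.S from -0.35458 to 0.072982. Dim probe sets limit how folds from low levels can be read, and 3 arrays per stage limit all values.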
